A study of Zea mays with 48 samples.

Results

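ZmCCA1 occupancy was compared between the maize inbred lines B73 and Mo17 at the sites that both lines shared, and the sites found in a single line were then described. A pair was a B73 peak and a Mo17 peak on the same chromosome that overlapped by at least 50% of the width of each. Of the 5466 peaks of the inbreds (3364 in B73 and 2102 in Mo17, among 10136 in the whole series), 679 in each line formed 679 pairs. These were 20.2% of the B73 peaks and 32.3% of the Mo17 peaks. Another 275 B73 and 271 Mo17 peaks overlapped a peak of the other line without meeting the 50% rule, and 2410 B73 and 1152 Mo17 peaks had no overlap of even 1 bp.

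The material was aerial tissue of seedlings of the inbreds B73 and Mo17, taken 5 days after planting from plants grown with 16 h of light and 8 h of darkness a day. Tissue was taken at ZT3, ZT9 and ZT15, where the number gives the hours since dawn. Chromatin was precipitated with an antibody raised against the N-terminal MYB domain of the ZmCCA1 proteins, and sequenced beside input DNA. Per the study, the antibody could recognise ZmCCA1b, and also a full-length ZmCCA1a provided that it holds this domain. With 2 replicates per line and time point, the inbreds contributed 12 ChIP and 12 input libraries. Each deposited list gives a single log2(ChIP/Input) per peak and time point, where 1 unit is a 2-fold difference in enrichment over input. No replicate values and no read counts stand behind these numbers in the lists, so no value has an error, the depth at a peak is unknown, and every comparison below is a description without a test. Line and reference genome cannot be told apart, because B73 reads were aligned to the B73 genome and Mo17 reads to a Mo17 assembly. In whole tissue, a lower ratio from fewer cells with bound ZmCCA1 and one from less binding per cell cannot be told apart either.

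CCA1 is a MYB-domain transcription factor of the plant circadian clock. In Arabidopsis it is most abundant around dawn, binds the evening element and the CCA1-binding site, and represses evening genes such as TOC1 and GIGANTEA until its own level falls. Through such sites the clock times output genes, among them genes of photosynthesis and carbohydrate metabolism.

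Probes that the study designed for binding assays carry these motifs in target genes, and are shown for the genes that have a peak in an inbred. The evening element AAATATCT and the CCA1-binding site AAAAATCT are in capitals in the intact probes, and the bases that differ from the intact probe are in capitals in the mutated probes. Where the probes lie relative to the peaks was not determined.
gi1 (GRMZM2G107101, chromosome 8), intact: gcatcgcggaAAAAATCTttttctcgcc
gi1 (GRMZM2G107101, chromosome 8), mutated: gcatcgcggaaaaaaGAGttttctcgcc
mdh6 (GRMZM2G129513, chromosome 1), intact: attaaatataaAAATATCTaaattcataa
mdh6 (GRMZM2G129513, chromosome 1), mutated: attaaatataCCCCGCGAtaaattcataa
These genes stand on opposite sides of the comparison. The clock gene gi1 had a peak in the Mo17 list and none in the B73 list. The malate dehydrogenase gene mdh6 had a peak in the B73 list and none in the Mo17 list. A missing call does not show that binding was absent.

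Both lists used 1 coordinate system. All 848 genes assigned to a peak in both lines had the same chromosome, start, end and strand in the 2 lists, and the signed offset between the centres of paired peaks, Mo17 minus B73, had a median of 1 bp (quartiles -65 and 79.5 bp). Regardless of sign the centres were a median of 72 bp apart, and in 398 of the 679 pairs they were within 100 bp. By chromosome the median signed offset lay between -8.75 and 19.5 bp. The median reciprocal overlap was 82.7%, and 261 pairs overlapped by 90% or more. Paired peaks had a median width of 1184 bp in B73 and 1175 bp in Mo17, and width correlated across pairs with Pearson's r = 0.95 (n = 679). The same gene was assigned to both peaks in 563 pairs, different genes in 5, a gene in 1 line only in 2, and no gene in 109.

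At the paired sites the 2 lines had similar levels, with small median differences whose sign depended on the time of day. At ZT3 the median was 1.85 in B73 and 1.78 in Mo17, at ZT9 it was 1.75 and 1.93, and at ZT15 it was 1.63 and 1.65. The median of B73 minus Mo17 over the 679 pairs was 0.049 at ZT3, -0.15 at ZT9, and 0.083 at ZT15, with an SD across pairs of 0.57, 0.56 and 0.59. Each of these medians was smaller than the spread across pairs. B73 had the higher value in 54.9% of pairs at ZT3, 38.6% at ZT9 and 55.1% at ZT15. The balance tilted towards Mo17 at ZT9 only.

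The signs at ZT3 and ZT15 did not outlast a change of scale. Over all peaks, the B73 list had higher medians than the Mo17 list at ZT3 (1.48 against 1.34) and ZT15 (1.33 against 1.17), and a lower one at ZT9 (1.56 against 1.68). When each list was centred on its own median at each time point, the median difference of the pairs was -0.090 at ZT3, -0.024 at ZT9 and -0.083 at ZT15. After quantile normalisation of the lists it was -0.031, -0.056 and -0.0024. On both scales the median was below 0 at every time point, though by almost nothing at ZT15 after quantile normalisation.

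**Figure D1:**
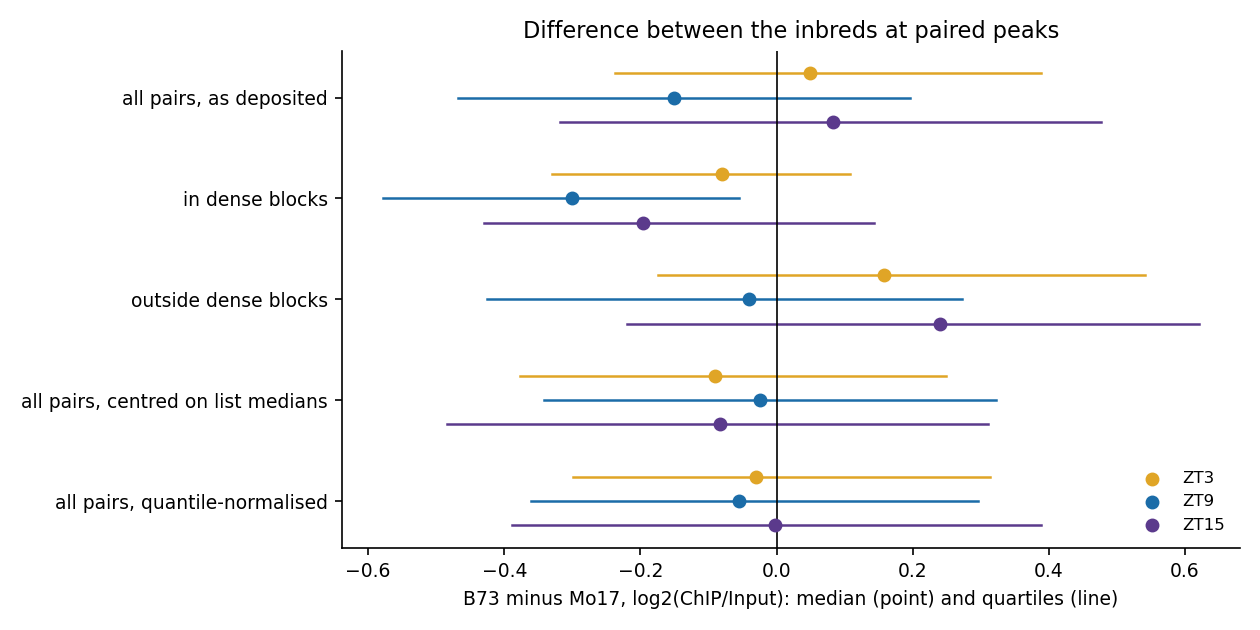
Median difference between the inbreds at paired peaks (x axis, B73 minus Mo17 in log2(ChIP/Input)) for 5 selections or scalings (y axis), where a point is the median, a line spans the quartiles and colour gives the time point. Dense blocks are chains of at least 5 pairs with centres at most 50 kb apart. The quartiles reach past 0 in every case except ZT9 in the dense blocks, and the medians at ZT3 and ZT15 are above 0 for all pairs as deposited (0.049 and 0.083) and below 0 after centring (-0.090 and -0.083).

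In most pairs the direction changed over the day. B73 was higher at all 3 time points in 122 pairs (18.0%) and Mo17 in 142 (20.9%), while 415 pairs (61.1%) changed direction. In 237 pairs (34.9%) the lines were within 0.5 of each other at every time point, and in 149 (21.9%) they were at least 1 log2 unit apart at 1 or more time points. Of these 149, 124 passed 1 unit at a single time point, 21 at 2 time points and 4 at all 3. In 15 pairs the difference passed 1 unit in opposite directions at different time points.

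At ZT3, 39 pairs (5.74%) were higher in B73 by at least 1 unit and 21 (3.09%) in Mo17. At ZT9 the counts were 23 (3.39%) and 30 (4.42%), and at ZT15 44 (6.48%) and 21 (3.09%). As deposited, more pairs passed this size in B73 at ZT3 and ZT15, and more in Mo17 at ZT9. The order held at ZT3 on both other scales and turned at ZT9 on both. At ZT15 it turned with centring and held after quantile normalisation. With the lists centred on their medians the counts were 33 and 20 at ZT9 and 25 and 37 at ZT15, and after quantile normalisation they were 31 and 23 at ZT9 and 33 and 26 at ZT15. Without the dense blocks of neighbouring pairs described further on, the ZT9 counts were 21 and 21. These percentages are the background for the genes named below, which were taken from the ends of the same distributions.

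Across the 679 pairs, values of the lines correlated with Pearson's r = 0.66 and Spearman's rho = 0.55 at ZT3, r = 0.69 and rho = 0.48 at ZT9, and r = 0.71 and rho = 0.64 at ZT15. Part of r came from a few very high sites: without the 10 pairs of the highest mean it was 0.54, 0.61 and 0.65. A match in time did not always give the closest match. B73 at ZT3 correlated with Mo17 at ZT9 (r = 0.69) as much as with Mo17 at ZT3 (r = 0.66). For ZT15 the same time point was the closest, with r = 0.71 against 0.65 for Mo17 at ZT15 with B73 at ZT3. All values of a line share its libraries, input and reference, and the points within a block of neighbouring peaks are not independent.

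**Figure D2:**
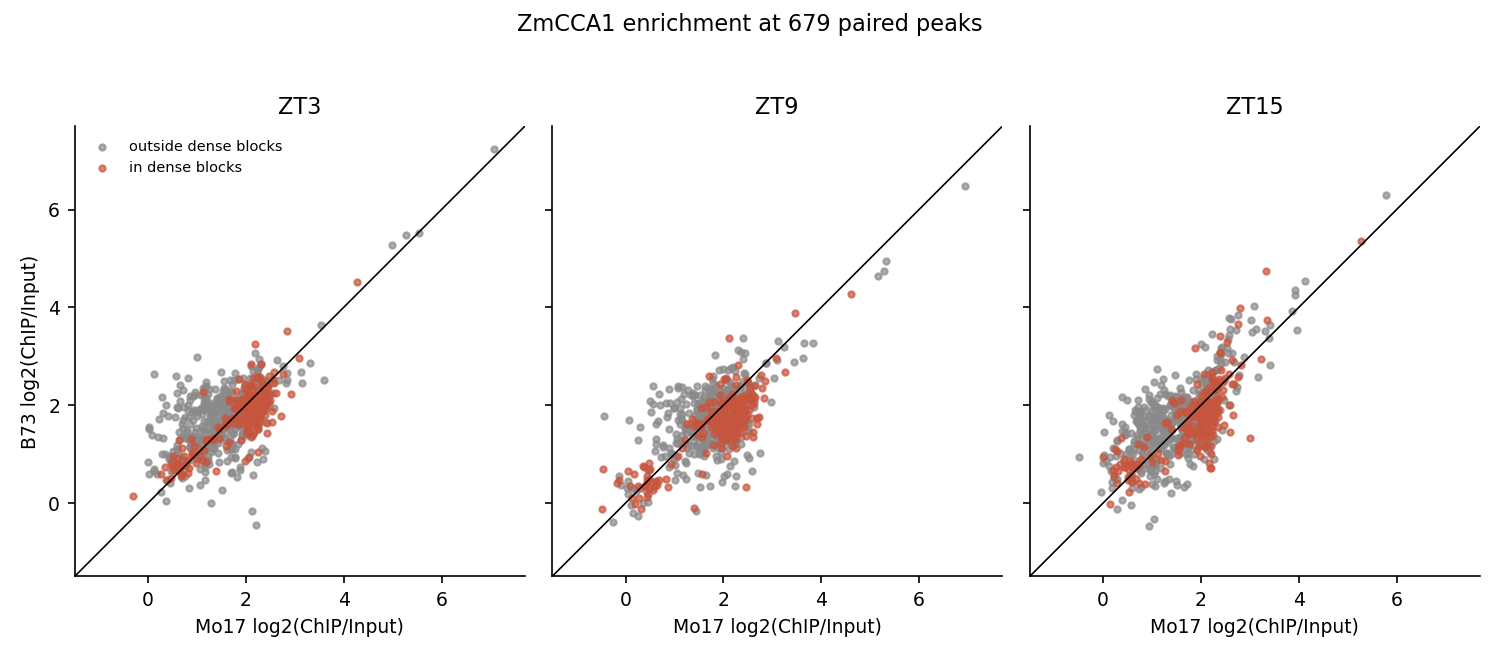
Log2(ChIP/Input) of each paired peak in Mo17 (x axis) and B73 (y axis) at ZT3, ZT9 and ZT15, with the line of equality. Each point is 1 of 679 pairs, and red points are the 221 pairs in dense blocks. A few sites at the upper right, up to 7.25 in B73 and 7.08 in Mo17 at ZT3, lie close to the line, while most pairs form a cloud around 2.

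The change through the day was shared less than the level. Across pairs, ZT9 minus ZT3 in B73 correlated with ZT9 minus ZT3 in Mo17 with r = 0.094 and rho = 0.14. For ZT15 minus ZT3 the values were r = 0.21 and rho = 0.25, and for ZT15 minus ZT9 r = 0.35 and rho = 0.38. As deposited, the change from ZT3 to ZT9 had the same sign in both lines in 53.2% of pairs, and that from ZT9 to ZT15 in 65.1%. With each list centred on its median at each time point, the shares were 64.1% and 68.8%, a smaller gap. Centring leaves the correlations as they are, and by these the step into the evening was the more alike of the 2.

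The phase of a peak, the time point of its highest value, was the same in both lines in 323 of 679 pairs (47.6%, 95% Wilson interval 43.8% to 51.3%, which covers counting error only). B73 had its highest value at ZT3 in 295 pairs, at ZT9 in 170 and at ZT15 in 214. Mo17 had it at ZT3 in 187, at ZT9 in 310 and at ZT15 in 182. The most frequent combination was thus not a shared phase but ZT3 in B73 with ZT9 in Mo17 (148 pairs), followed by ZT15 in both (116), ZT3 in both (104) and ZT9 in both (103). The reverse shift, ZT9 in B73 with ZT3 in Mo17, was found in 44 pairs.

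On centred values the share with the same phase was 50.7%, but the combinations changed. ZT3 in B73 with ZT9 in Mo17 then held 49 pairs and the reverse 40, and ZT15 in both held 186. The median lead of the highest value over the next was 0.31 in B73 and 0.29 in Mo17, and 81 pairs had a lead of at least 0.5 in both. In 41 of these 81 (50.6%, interval 40.0% to 61.2%) the phase was the same.

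**Figure D3:**
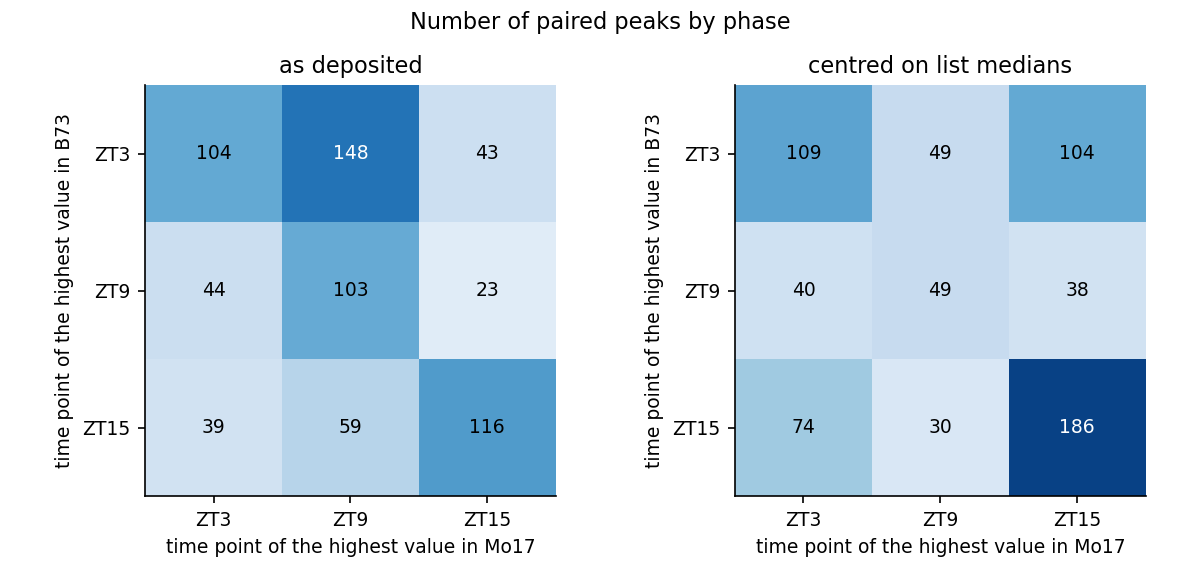
Number of paired peaks by the time point of the highest value in B73 (rows) and Mo17 (columns), for the values as deposited (left) and centred on the list medians (right). On the left the largest cell is ZT3 in B73 with ZT9 in Mo17 (148 pairs), and on the right it is ZT15 in both (186).

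Many of the shared sites lay side by side. Chains of at least 5 pairs with neighbouring centres at most 50 kb apart formed 19 dense blocks with 221 pairs (32.5%) in 1620 kb. Inside these blocks 221 of 250 B73 peaks (88.4%) and of 270 Mo17 peaks (81.9%) were paired, against 14.7% of B73 and 25% of Mo17 peaks elsewhere. The blocks were drawn from the pairs, so part of this contrast follows from how they were chosen. Chromosome 9 held 5 blocks and 127 pairs, and there 36.4% of B73 and 50.4% of Mo17 peaks were paired, against at most 22.3% and 34% on any other chromosome.

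Blocks and single sites differed in which line was higher. In the blocks the median of B73 minus Mo17 was -0.080, -0.30 and -0.20 at the 3 time points, and Mo17 was higher in 78.3% of pairs at ZT9. Among the 458 pairs outside blocks it was 0.16, -0.041 and 0.24, and B73 was higher in 62.2% at ZT3 and 64.0% at ZT15. As deposited, the medians near 0 over all pairs thus summed over sets of opposite sign at ZT3 and ZT15. The median of the whole B73 list was higher by 0.14 and 0.17 at these time points. Centring would therefore take away much of the B73 excess outside blocks. Outside blocks the correlation between the lines was r = 0.62, 0.64 and 0.71, and within them 0.82, 0.83 and 0.78.

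The largest block, chr9:72726751-73003481 (AGPv2 coordinates of the lists), held 45 pairs and 26 assigned genes. Its median differences were -0.31, -0.58 and -0.43 at ZT3, ZT9 and ZT15, and Mo17 was higher in 44 of 45 pairs at ZT9. The next, chr1:234462220-234739456, held 39 pairs with medians of -0.080, -0.31 and -0.17, and Mo17 was higher in 37 pairs at ZT9. On chromosome 2, the 13 pairs of chr2:229082409-229116377 were all higher in Mo17 at ZT15 (median -0.50). Mo17 had the higher median at all 3 time points in 11 blocks.

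In 5 blocks B73 had the higher median at all 3 time points as deposited. Among them were the blocks that hold the genes named by the study that are annotated for photosynthesis. Genes in the other blocks were not checked for such annotation. The block chr5:209939964-210014716 had 15 pairs with medians of 0.025, 0.12 and 0.21, and B73 was higher in 14 of them at ZT15. In chr1:203882551-203931329, 13 pairs had medians of 0.059, 0.049 and 0.35. At ZT3 the medians of both blocks were below the offset of 0.14 between the list medians.

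**Figure D4:**
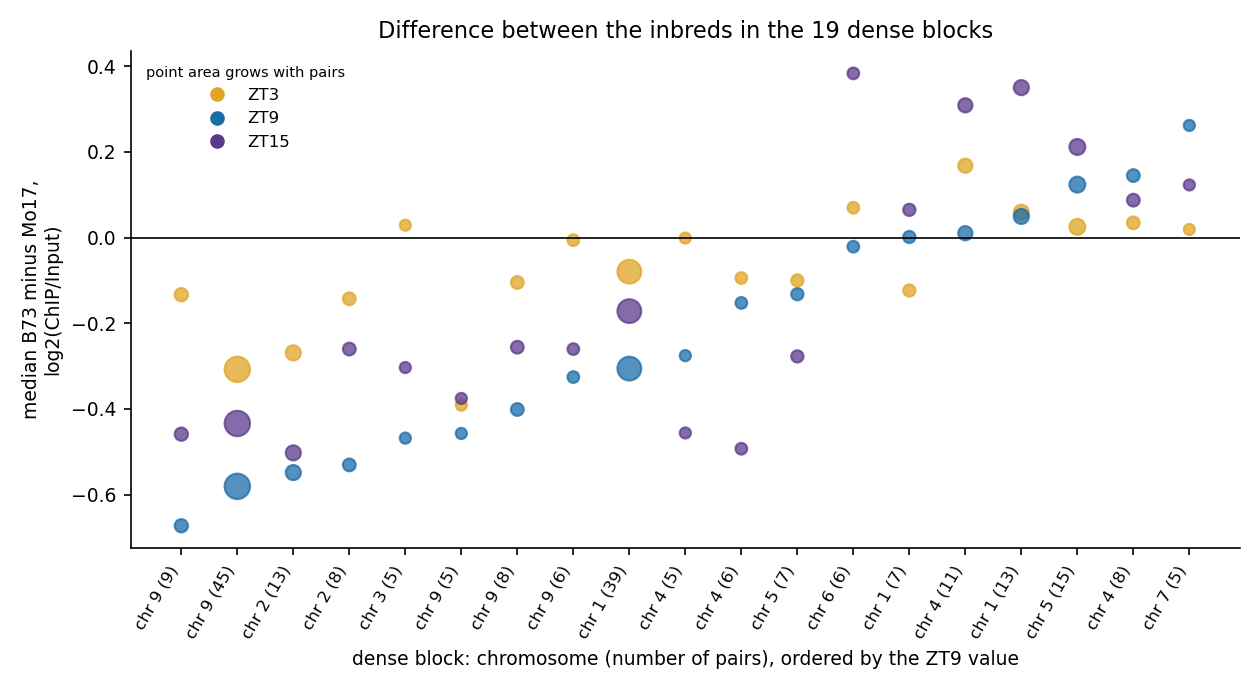
Median of B73 minus Mo17 in log2(ChIP/Input) (y axis) for each of the 19 dense blocks (x axis, chromosome with the number of pairs), ordered by the ZT9 value. Points are coloured by time point and their area grows with the number of pairs. The ZT9 medians run from -0.67 to 0.26, and 13 of 19 are below 0.

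Of the 18 genes that the study names as targets, clock components or assay genes, 8 had an assigned peak in an inbred, and 3 of these had paired peaks. All 3 are annotated for photosynthesis and lie in dense blocks. GRMZM2G394732, photosystem II reaction center protein Z, carried 1 of the strongest shared peaks (chr5:209992555-209993808 in B73, inside the gene). The values at ZT3, ZT9 and ZT15 were 4.51, 4.27 and 5.35 in B73 and 4.27, 4.6 and 5.27 in Mo17. The lines differed by little compared with the height of the peak, and both were highest at ZT15. Protein Z is encoded in the plastid genome of plants, while the lists place this identifier on chromosome 5.

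GRMZM2G427369, a photosynthetic reaction center protein gene in the same block, had lower values of 2.13, 1.61 and 2.38 in B73 and 2.24, 1.46 and 2.35 in Mo17. Both lines had their lowest value at ZT9. GRMZM2G448142, annotated as the beta subunit of ATP synthase, which makes ATP from the proton gradient, had 2 pairs on chromosome 1. Inside the gene the values were 1.96, 2.23 and 2.69 in B73 and 2.03, 2.18 and 2.22 in Mo17. Upstream of it they were 1.95, 2.07 and 2.44 in B73 and 1.75, 1.70 and 1.92 in Mo17. B73 was higher at ZT15 at both sites.

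No clock gene that the study names, and none of the clock and light perception genes found by RefSeq name, had paired peaks. Of all 1987 genes with a peak that were found at 1 RefSeq gene, 196 had paired peaks. With 4 clock and light perception genes that had a peak, finding none with pairs says little about such genes. Both maize GIGANTEA genes had a peak in Mo17 alone. In Arabidopsis GIGANTEA is an evening-expressed clock protein that acts in the control of flowering. The Mo17 peak inside gi1 (chr8:21102387-21106200) had values of 0.76, 1.68 and 0.22, and the peak inside gi2 (GRMZM5G844173, chr3:9304738-9306349) had 0.17, 2.54 and 0.33. Both were highest at ZT9. The MYB-domain gene GRMZM2G175265, which lies upstream of ZmCCA1a, also had a Mo17 peak (1.34, -0.092 and -1.05), highest at ZT3.

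The malate dehydrogenase gene mdh6, whose product interconverts oxaloacetate and malate, had a peak in B73 alone (chr1:203170348-203171234, inside the gene) with 0.93, 2.29 and 1.41. GRMZM2G398288, a putative phospholipid-transporting ATPase, had peaks in both lines that overlapped without reaching 50%. They had 1.39, 2.02 and 0.96 in B73 and 1.73, 2.22 and 0.30 in Mo17, highest at ZT9 in both. The other 10 genes, including ZmCCA1a, ZmCCA1b, ZmPRR59 and ZmTOC1a, had no assigned peak in either inbred list. The study reported binding of ZmCCA1b in vitro to promoter fragments of ZmTOC1a, gi1 and ZmPRR59. It also reported ChIP-qPCR enrichment at mdh6 and at GRMZM2G121612 and GRMZM2G033885, which are among these 10. A gene missing from a list is thus not shown to be unbound.

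The 3 highest shared sites differed by little compared with their height. The highest, chr1:62370845-62371897 with the same ends in both lists and no assigned gene, had 7.25, 6.47 and 6.30 in B73 and 7.08, 6.94 and 5.78 in Mo17. The peak upstream of GRMZM2G066485 (chr6:138678780-138680139) had 5.53, 4.95 and 4.54 in B73 and 5.54, 5.33 and 4.13 in Mo17. The peak upstream of GRMZM2G168077 (chr8:166826527-166828572) had 5.47, 4.63 and 4.35 in B73 and 5.28, 5.17 and 3.92 in Mo17. All 3 were highest at ZT3 in both lines, and at each of them B73 was the lower at ZT9 and the higher at ZT15. In all, 14 pairs had a mean of the 6 values of at least 3, and the largest difference between the lines at a single time point among them was 1.42.

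All 6 values reached 1.5 in 219 pairs (32.3%). Among these the closest agreement was at GRMZM5G896514 (upstream, chr1:130789221-130790595), with 2.12, 2.08 and 2.56 in B73 and 2.1, 2.08 and 2.50 in Mo17. GRMZM2G028921 on chromosome 9 (1.62, 1.84 and 1.63 against 1.66, 1.89 and 1.69) and GRMZM2G030695 on chromosome 8 (1.74, 2.21 and 2.14 against 1.70, 2.1 and 2.03) followed. At these sites the time points had the same order in both lines.

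At the other extreme were sites called in both lines with a much higher value in 1 line than in the other at a given hour. They were chosen for that difference, so part of their pattern over the day follows from the choice. At ZT3 the furthest above in B73 was GRMZM2G163996 (chr3:31450139-31450628, inside the gene), with 2.63, 1.33 and 0.65 in B73 and 0.13, 2.03 and 1.06 in Mo17. GRMZM5G850607 on chromosome 10, at the gene start, had 2.60, 1.22 and 0.89 against 0.58, 1.22 and 2.26. A site without a gene, chr1:299640179-299641545, had 2.99, 1.63 and 2.20 against 1.0, 2.52 and 1.33. Each was highest at ZT3 in B73 and later in Mo17.

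The furthest above in Mo17 at ZT3 was GRMZM2G099529 (chr6:167512288-167512904, inside the gene), with -0.44, 2.40 and 1.19 in B73 and 2.21, 0.56 and 0.81 in Mo17, so it was also among the furthest above in B73 at ZT9. GRMZM2G126019 on chromosome 1 had -0.16, 1.64 and 1.41 against 2.13, 1.33 and 0.48. The site chr8:138925156-138925593, without a gene, had 0.58, 2.03 and 2.73 against 2.14, 0.56 and 1.11. These 3 had the reverse order, highest at ZT3 in Mo17 and later in B73. The site on chromosome 8 was also among the furthest above in B73 at ZT15.

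At ZT9 the largest excess in B73 was 2.20 at GRMZM2G457889 (chr2:209636494-209637793, inside the gene), named Hda1 and rpd3 in RefSeq. Histone deacetylases of this class remove acetyl groups from histone tails. Its values were 1.41, 1.77 and 1.79 in B73 and 1.74, -0.44 and 0.11 in Mo17, and it also had the next to largest excess in B73 at ZT15. The site chr8:170612900-170614292, without a gene, had 1.33, 1.71 and 1.48 against 1.58, 0.066 and 1.38. There the lines were close at ZT3 and ZT15, and apart at ZT9.

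In the opposite direction at ZT9 stood GRMZM5G880319, in the largest block on chromosome 9, with 2.27, 0.32 and 0.94 in B73 and 1.12, 2.46 and 0 in Mo17. GRMZM2G174315 on chromosome 6 had 1.77, 0.66 and 0.46 against 0.84, 2.58 and 1.26. GRMZM2G351018 (chr8:174501447-174502270, inside the gene), named Hox2b and thus a homeobox gene, had 1.92, 0.34 and 0.39 against 1.35, 2.23 and 1.0. Each was highest at ZT3 in B73 and at ZT9 in Mo17, and the choice by the ZT9 difference favours such a combination.

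At ZT15 the largest excess in B73 was at GRMZM2G032003 on chromosome 7, inside the gene, with 0.92, 1.85 and 2.17 in B73 and 0.47, 1.70 and 0.38 in Mo17. The 3 furthest above in Mo17 all lay in dense blocks of chromosome 9. GRMZM5G800374 had 1.90, 1.82 and 1.33 against 2.31, 2.04 and 3.01, GRMZM2G366313 had 1.64, 0.97 and 0.71 against 2.42, 2.08 and 2.21, and GRMZM2G109550 had 2.04, 1.28 and 0.72 against 1.98, 2.07 and 2.20. In B73 these sites had their lowest value at ZT15. Centring or quantile normalisation left each of the differences by which the sites from GRMZM2G163996 onwards were chosen at 1 unit or more in the same direction. The list medians differed by only 0.14, -0.13 and 0.17 at ZT3, ZT9 and ZT15. Centring thus could not have brought differences this large below 1 unit.

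Of 3195 genes assigned in either inbred, 1987 were found at exactly 1 gene of the RefSeq annotation, and 247 had a name there other than an identifier. Name lists were drawn up after these names were seen, so the share of a list that was bound says nothing about the list. Splicing factors contributed 4 genes with 6 pairs. In Arabidopsis SR45 regulates alternative splicing, and the maize SR45_1 gene (GRMZM2G060540) had 1.36, 1.47 and 1.45 in B73 and 1.03, 1.82 and 1.27 in Mo17. SR45_2 (GRMZM2G133926) had 2 pairs, and near its start B73 was higher by 1.32 at ZT9 (2.40 against 1.07). At its other site Mo17 was the higher (2.15 against 1.72).

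GRMZM2G113592, for the U1-70K protein of the U1 snRNP that recognises the 5′ splice site, had 1.75, 2.37 and 2.15 in B73 and 2.25, 1.15 and 1.09 in Mo17. It passed 1 unit at ZT9 and ZT15. RSZ28 (GRMZM2G027105), an SR protein gene, had 2 pairs. Its upstream site was higher in Mo17 at every time point, with differences of -0.27, -0.44 and -0.34, and the site inside the gene was higher in B73 by 0.46, 0.24 and 0.23. SCL30 and RS2Z37B had a peak in B73 only. For the 6 pairs the median difference was 0.092, -0.056 and 0.21. At ZT9, 2 pairs were higher in B73 by at least 1 unit, against 23 of all 679 pairs (3.39%). The list was drawn up after the names were seen and 6 pairs are few, so this says nothing about splicing factors as a group.

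Of 9 bound genes for chloroplast gene expression and import, 3 had peaks in both lines, 4 in B73 alone and 2 in Mo17 alone. Pairs lay at 2 of them, crs1, whose product acts in splicing of chloroplast introns, and at toc34, a receptor of the outer envelope for imported proteins. At crs1 (GRMZM2G078412) B73 had 2.11, 1.24 and 0.55 and Mo17 had 0.87, 1.91 and 0.95, so it was highest at ZT3 in B73 and at ZT9 in Mo17. At toc34 (GRMZM2G159777) the values were 1.29, 2.17 and 1.28 in B73 and 0.85, 1.60 and 1.08 in Mo17, highest at ZT9 in both. CRS2, another chloroplast intron splicing factor gene, had 1 wide B73 peak that overlapped 3 Mo17 peaks. TATC, rnc1, FtsH2A and the second toc34 gene (GRMZM2G157157) had B73 peaks alone, and crp1 and PPR8522 Mo17 peaks alone.

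Other named genes with pairs gave both close and distant values. The ftr1 gene (GRMZM2G122793), for ferredoxin-thioredoxin reductase, which links photosynthetic electron transport to the redox state of chloroplast enzymes, had 2 pairs inside it. At the site nearer the start B73 had 1.86, 2.03 and 2.51 and Mo17 had 1.36, 2.15 and 1.75. At the other the lines were -1.04 apart at ZT9 and 1.23 apart at ZT15, in opposite directions. ACC1 (GRMZM5G858094), an acetyl-CoA carboxylase gene of fatty acid synthesis, was alike at ZT3 (1.90 and 1.82) and ZT9 (1.85 and 1.73) and not at ZT15 (-0.33 in B73 and 1.04 in Mo17). At LOS4 (GRMZM2G000823), whose Arabidopsis namesake encodes an RNA helicase, B73 was higher by 0.97 at ZT9 and 1.14 at ZT15, and the values at ZT3 were 2.21 and 2.37.

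Peaks with no overlap in the other line made up 71.6% of the B73 list (95% Wilson interval 70.1% to 73.1%, counting error only) and 54.8% of the Mo17 list (52.7% to 56.9%). The overlapping peaks were nearly equal in number, 954 in B73 and 950 in Mo17, so these shares differ through the length of the lists. The lists give no Mo17 value where only B73 has a peak, or the reverse, so they show where a peak was called in a single line and not that the other line lacked binding. Of those found only in B73, 69.8% were more than 100 kb from any Mo17 peak, and of those only in Mo17, 52.9% from any B73 peak. The nearest Mo17 peak was a median of 274 kb from a peak found only in B73, and the nearest B73 peak 119 kb from one found only in Mo17. Within 1 kb lay 5.15% and 11.1%. The longer B73 list offers more peaks to be near, and distances expected from the length of the lists were not computed.

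These single-line peaks, found in 1 inbred without overlap in the other, were narrower, lower and more uneven over the day than the paired ones. A pair needs a call in both lists and an overlap, which favours wide and strong peaks. A peak enters a list through a call at any time point, so a weak peak high at a single hour can be called in 1 list alone. Part of the contrast thus follows from how the classes were drawn. Median width was 990 bp in B73 and 890 bp in Mo17, against 1184 and 1175 bp for paired peaks. The median highest value was 1.92 in B73 and 1.84 in Mo17, against 2.05 and 2.11. A larger gap was in the other time points: the median range between the highest and lowest of a peak's 3 values was 1.12 in B73 and 1.29 in Mo17, against 0.63 and 0.61. All 3 values reached 1 in 34.1% of the B73 and 20.7% of the Mo17 peaks, against 73.8% and 65.5% of paired ones, and at least 1 value was below 0 in 10.9% and 22.0%, against 2.36% and 1.62%. Outside the dense blocks, paired peaks had a range of 0.77 in both lines and reached 1 throughout in 72.3% and 57.6%.

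**Figure D5:**
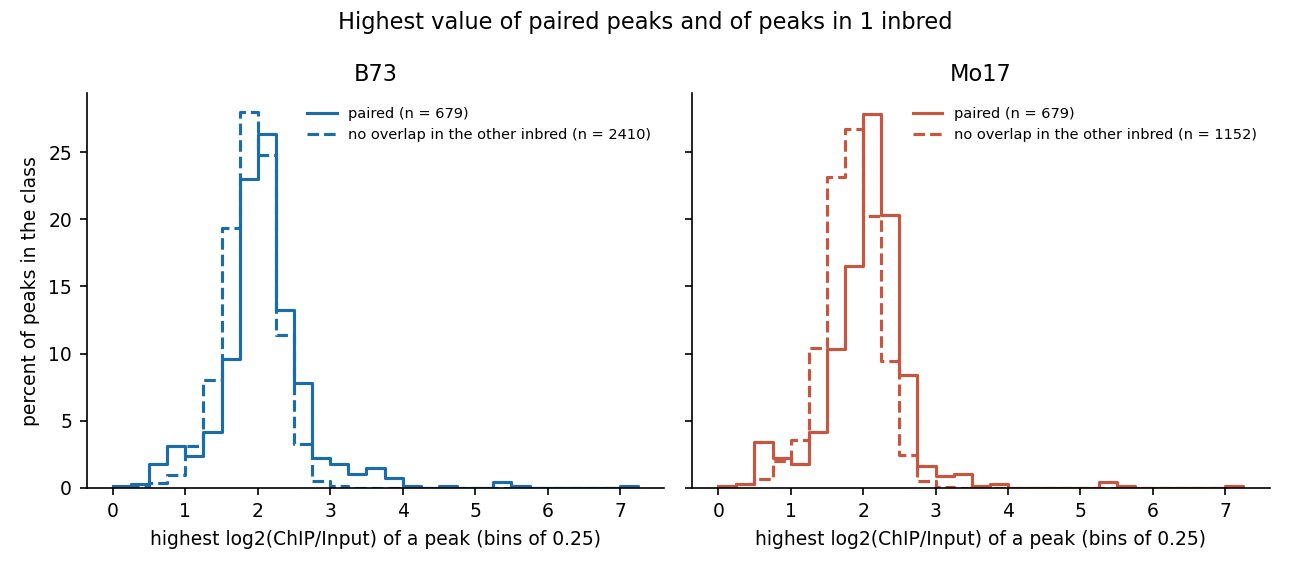
Distribution of the highest log2(ChIP/Input) of a peak (x axis, bins of 0.25) as a percentage of the peaks of each class (y axis), for paired peaks (solid) and peaks with no overlap in the other inbred (dashed) in B73 and Mo17. The classes overlap widely, with medians of 2.05 and 1.92 in B73 and 2.11 and 1.84 in Mo17, and no peak of the dashed classes passes 3.17.

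As deposited, the phase of single-line peaks differed from that of paired peaks mainly in B73. Of the peaks found only in B73, 34.2% had their highest value at ZT3, 41.2% at ZT9 and 24.5% at ZT15, against 43.4%, 25% and 31.5% of paired B73 peaks. Of those found only in Mo17 the shares were 28.0%, 50.1% and 21.9%, against 27.5%, 45.7% and 26.8%. Outside the dense blocks 47.8% of paired Mo17 peaks were highest at ZT9, near the 50.1% of single-line ones. Of paired B73 peaks outside the blocks, 30.8% were highest at ZT9 and 36.7% at ZT3, closer to the single-line shares than over all pairs. As deposited, ZT9 was the most frequent phase of single-line peaks in both lines and of paired peaks in Mo17 only. On centred values ZT9 held 36.1% of single-line peaks in B73 and 37.1% in Mo17 and was still their most frequent phase, against 18.7% and 18.9% of paired peaks, which were most often highest at ZT15 in both lines (42.7% and 48.3%).

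Single-line peaks lay more often within genes. The peak was inside its assigned gene for 78.4% of those found only in B73 and 70.6% of those only in Mo17, against 51.3% and 50.5% of paired peaks. Among pairs outside the dense blocks the shares were 65.7% and 65.1%. Of paired B73 peaks, 16.9% lay between 2 and 10 kb upstream of a gene, against 7.64% outside blocks and 5.98% of those found only in B73. No peak of these lists lay downstream of its assigned gene. Of single-line peaks with a gene, 15.1% in B73 and 27.8% in Mo17 had a gene that also carried a peak elsewhere in the other line. The longer B73 list raises the Mo17 share.

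The strongest single-line peaks reached about 3. Among those with a gene, the highest in B73 was inside GRMZM2G085630 (chr7:96168963-96169501) with 1.14, 3.17 and 0.21, followed by GRMZM2G022192 (chr2:6047595-6048006), named GATA after a family of zinc finger transcription factors, with 2.01, 3.08 and 0.94. GRMZM2G106917 (0.83, 2.94 and 2.33) and GRMZM2G074653 (0.084, 2.88 and 1.47) came next. All 4 were highest at ZT9, and the nearest Mo17 peak was 204 to 1595 kb away. The 2 highest without a gene, chr1:299586619-299587077 (3.11, 1.47 and 0.68) and chr4:26374444-26375197 (3.08, 1.45 and 1.06), were highest at ZT3.

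In Mo17 the highest with a gene was inside GRMZM2G050218 (chr4:197716068-197716657) with 1.63, 3.05 and 0.098, 286 kb from a B73 peak. The other 3 lay close to a B73 peak. GRMZM2G030235 (1.2, 2.98 and 0.85) was 1.0 kb from it, GRMZM2G079257 (2.94, 0.39 and 1.24) 0.43 kb and GRMZM2G154737 (2.89, 2.19 and 2.67) 0.63 kb. The peak of GRMZM2G154737 lay in the dense block chr1:234462220-234739456. Each of these genes also had an assigned B73 peak, which did not overlap the Mo17 peak. The 2 highest without a gene lay near each other on chromosome 6, at chr6:167007014-167007545 (0.88, 2.82 and 0.063) and chr6:167013620-167014065 (2.70, 0.38 and 0.87).

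Photoreceptor genes were also among the single-line sites. PhyB1 (GRMZM2G124532), a red light receptor, had a B73 peak with 1.63, 1.99 and 0.83, and phot1 (GRMZM2G001457), a blue light receptor, had 2 B73 peaks inside the gene, with 1.78, 1.19 and -0.11 and with 2.05, 1.63 and 0.94. The name lists, drawn up after the names were seen, divided as follows. Of 8 carbon metabolism genes, 7 had a peak in B73 alone, among them me2 (0.44, 1.82 and 0.83), pep4 (0.20, 0.13 and 1.96) and the sucrose transporter gene sut4 (0.48, 1.85 and 0.50), and Pgk-2 had overlapping peaks in both. Of 12 kinase and phosphatase genes, 4 were bound in B73 alone, 4 in Mo17 alone and 4 in both. Of 17 chromatin protein genes, 11 were bound in B73 alone, 3 in Mo17 alone and 3 in both, and of 4 autophagy genes all were bound in B73 alone. For comparison, 1137 of all 1987 bound genes found at 1 RefSeq gene were bound in B73 alone, 419 in Mo17 alone and 431 in both.

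Sites on either side of the 50% rule had median differences of the same sign at ZT9. At ZT3 outside the rule and at ZT15 inside it the median was too small for its sign to be read. In 64 pairs just inside it, with 50% to 55% overlap, the median difference was 0.21 at ZT3, -0.097 at ZT9 and -0.017 at ZT15. In 45 overlaps just outside it, between 45% and 50%, it was -0.0041, -0.057 and 0.14. Pairs that overlapped by 90% or more correlated most closely (r = 0.87, 0.85 and 0.82) and in the 4 bins of 10% from 50% to 90% r lay between 0.24 and 0.70.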

How the data were processed

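ChIP-seq with an antibody against ZmCCA1 was carried out in 2 replicates of each inbred at ZT3, ZT9 and ZT15. Per the study's methods, reads were trimmed and aligned by the authors, B73 to AGPv2 and Mo17 to an assembly guided by that reference. They kept unique concordant pairs without duplicates, down-sampled the libraries, called peaks against input (MACS2 2.0.1 in the submitters' processing notes, p-value cutoff 0.001), kept peaks found in both replicates, merged the time points of a genotype and assigned genes within 10 kb. The deposited values are log2(ChIP/Input), 1 per peak and time point. How replicates were combined is not given in the sources used here. Depth per peak is unknown, so values have no error and no test was run.

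Pairing, differences, correlations and phases were computed with scipy 1.17.1 and pandas 2.3.3 under Python 3.11.15, and checked on simulated lists. The members and lists were chosen with earlier results of these data known. Named sites were the 18 genes of the study, per time point the 3 largest differences in each direction, the 3 highest pairs, the 3 closest pairs with all 6 values at least 1.5, and per inbred the 4 highest single-line peaks with a gene and 2 without. Other gene names come from RefSeq (Zm-B73-REFERENCE-NAM-5.0), by name lists drawn up after the names were seen, because planned lists by gene description could not be applied. Genes named singly from those lists, from the RefSeq names or for a block were chosen after their values were seen. Alternatives were other overlaps, centring, quantile normalisation, and subsets by level, gene or distance. Leaving out dense blocks or the 10 highest pairs was chosen after seeing the data. Peak sequences and promoter motifs were not analysed here.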

Additional observations from a re-analysis of the deposited data

Results flagged for a closer look

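From ZT3 to ZT9 the lines moved in opposite directions at the median of the 679 pairs: ZT9 minus ZT3 was -0.078 in B73 and 0.084 in Mo17. The value was higher at ZT9 in 289 pairs in B73 and in 403 in Mo17. With each list centred on its median at each time point, both medians were below 0 (-0.16 in B73 and -0.26 in Mo17), so the opposite signs are not seen on that scale. The difference was not tested, since there are no replicate values. In the dense blocks the medians were -0.17 and 0.015, and outside them 0.0032 and 0.16, so the opposite signs are not seen outside the blocks, where the median of the difference between the lines was still -0.16.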

How the results depend on the processing

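No paired analysis was possible because the lists hold no replicate values. The range of values below measures the effect of selection and scale only. Of 113 recomputed values of the main comparisons, 69 stayed within their interval or within 1.5 times the count, and none of the 36 recomputed single differences fell below 1 unit. The single differences were chosen as the largest, and centring could not have brought them below 1 unit. Pairs numbered 412 at 75% overlap against 679. The median difference at ZT3 (0.049) was -0.090 centred, -0.031 quantile-normalised, -0.011 with centres within 100 bp and 0.16 without dense blocks. At ZT9 (-0.15) it was -0.024, -0.056 and, without dense blocks, -0.041. At ZT15 (0.083) it was -0.083, -0.0024 and, without dense blocks, 0.24. Pearson's r at ZT3, ZT9 and ZT15 was 0.61, 0.65 and 0.66 at 25% overlap, 0.77, 0.75 and 0.77 at 75%, 0.58, 0.62 and 0.64 with any overlap, 0.59, 0.53 and 0.66 with a highest value of at least 1.5, 0.56, 0.50 and 0.64 with the same gene, and 0.54, 0.61 and 0.65 without the 10 highest pairs. Without dense blocks r at ZT9 was 0.64. At 75% overlap, pairs at least 1 unit apart numbered 15, 11 and 23 with B73 higher and 8, 13 and 9 with Mo17 higher. Centred, the ZT15 counts were 25 and 37 and those at ZT9 33 and 20 (23 and 30 as deposited), and without dense blocks Mo17 was higher in 13. The highest value of B73 single-line peaks minus that of paired peaks (-0.13) was -0.14 with a gene and -0.16 centred, and that of Mo17 (-0.27) was -0.34 centred. The ZT9 shares of single-line peaks were 36.1% in B73 and 37.1% in Mo17 when centred. Fewer pairs pass a stricter overlap by construction, and for the other changes the cause was not tested.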

Other observations

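Overlapping peaks that missed the 50% rule (275 in B73 and 271 in Mo17) were close in height to the paired ones in B73, with a median highest value of 2.02, and lower in Mo17, with 1.96. Of 278 overlaps between peaks that were both without a partner, B73 was the wider in 170, and in 109 the smaller peak lay fully within the larger. A B73 peak covered up to 3 Mo17 peaks, as at the chloroplast intron splicing factor gene CRS2 (GRMZM2G132021). There the B73 peak chr8:12555857-12559485 had 1.24, 1.61 and 1.45, and the 3 Mo17 peaks that overlapped it were highest at different times, with 1.89 at ZT3, 2.51 at ZT15 and 1.67 at ZT9.

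Of 848 genes with a peak in both lines, 683 had overlapping peaks and 165 only peaks at separate places. One of the latter is the MAP kinase gene mpk6 (GRMZM2G089484), whose B73 peak (chr10:88681645-88684453; 0.84, 1.23 and 2.02) ends just before its Mo17 peak begins (chr10:88684461-88685208; 2.20, 1.09 and 1.0), highest at ZT15 and at ZT3. The receptor kinase gene serk2 (GRMZM2G115420) had overlapping peaks with 2.62, 0.87 and 0.066 in B73 and 0.82, 2.15 and 0.95 in Mo17, and a further Mo17 peak alone with 1.06, 1.94 and 2.24. These genes were chosen after their values were seen.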
